A study of Mus musculus with 7 samples.

Results

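A set of 9 genes of monocytes and interstitial macrophages, the mononuclear phagocytes that reach the lung from blood or lie in its connective tissue, was followed in bleomycin-injured mouse lungs with and without hyperbaric oxygen (HBO). They were taken by name and are 9 of the 55401 genes in the count table: Csf1, Il34, Csf1r, Ly6c2, Ms4a7, Adgre1, Fcgr1, Lyz2 and Cd14. All 9 were among the 17465 genes with enough reads to be tested. The study's right lung lobes came from male C57BL/6 mice of 6 to 8 weeks that had received bleomycin, an antitumour antibiotic that breaks DNA and scars the lung, in the trachea. The BLM group had 4 mice with bleomycin alone, and the BLM+HBO group had 3 mice that also breathed pressurised oxygen at 2.5 ATA for 90 min per day, 14 times from day 7. All lungs were taken on day 21, with 1 library per mouse. The labels place the BLM mice in the chamber without pressurised oxygen while the supplementary methods call them untreated, which was not settled here. Neither group was free of bleomycin, so no level of an uninjured lung stands beside these values, and mice with too little weight loss had been left out by the study.

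Monocytes and most macrophages depend on CSF1R, a receptor tyrosine kinase with a pair of ligands, CSF1 and IL-34. Classical monocytes leave the blood, carry LY6C on their surface and can become macrophages in injured tissue, while nonclassical monocytes patrol the vessel wall with little LY6C. Interstitial macrophages carry complement C1q, MS4A7 and, in part, the mannose receptor, and differ from the alveolar macrophages of the air spaces. In the lung, monocyte-derived macrophages are known for their part in bleomycin fibrosis. In bulk tissue, fewer cells of a type and less RNA per cell cannot be told apart.

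In GRCm38 coordinates of the count table, Csf1 spans 107741048 to 107760469 on chromosome 3 (minus strand), Il34 spans 110741829 to 110805924 on chromosome 8 (minus strand), Csf1r spans 61100598 to 61132149 on chromosome 18 (plus strand). Further, Ms4a7 spans 11321039 to 11336146 on chromosome 19 (minus), Adgre1 spans 57358691 to 57483527 on chromosome 17 (plus), Fcgr1 spans 96282909 to 96293969 on chromosome 3 (minus), Cd14 spans 36725067 to 36726798 on chromosome 18 (minus). Each span covers the whole protein-coding gene, exons and introns, and counts come from the exons.

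The libraries summed to between 18157161 and 26365969 counts, and each of the 9 genes had between 282 and 176840 counts in every mouse. Levels are given as read counts scaled to library size with the TMM factors of edgeR (CPM). A gene was called where its unadjusted P was below 0.05 and its fold change above 1.5, the study's thresholds, in edgeR's quasi-likelihood test. By this rule 2.89% of all tested genes were lower in BLM+HBO and 3.4% were higher. The 9 genes and all lists were chosen with earlier results of these data known, so their counts beside these shares are not independent support. At a Benjamini-Hochberg adjusted P below 0.05, edgeR called 0% of all tested genes (0 of 17465, with 1861 at an unadjusted P below 0.05), limma-trend called 0 and DESeq2 called 151, which is 0.892% of those it could adjust. The BLM+HBO 2 library lay nearest to the BLM mice for many of these genes, and BLM+HBO 1 held the most marker RNA of several other white blood cells. Over all genes with at least 20 counts in a pair of libraries, BLM+HBO 2 was also nearer to the BLM mice than to its own group. Its mean chi-square per gene, a measure of difference against sampling noise, was 34.3, 25.1, 19 and 13 against BLM 1 to BLM 4. Against BLM+HBO 1 and BLM+HBO 3 it was 64.3 and 57.5. The cause was not tested.

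Of the 9 genes, 3 fell in BLM+HBO, namely Ms4a7, Adgre1 and Fcgr1, and 0 rose. This count rested on single mice. With BLM+HBO 3 left out, 0 of the 9 were called lower and Ly6c2 was called higher, and with BLM 1 or BLM+HBO 1 left out Fcgr1 alone was called. With BLM 3 left out Adgre1 and Fcgr1 were called, and with BLM+HBO 2 left out 4 were, all lower. At P below 0.05 without the fold limit, 4 of the 9 were lower, since Cd14 joined them, against 5.54% of all tested genes. The groups' ranges did not overlap for 2 of the 9 genes, Fcgr1 and Cd14, both lower in BLM+HBO, whereas 4.72% of all tested genes lay wholly lower and 4.05% wholly higher. The median log2 fold change over the 9 genes was -0.30, beside 0.01 over all tested genes. After adjustment over all genes, edgeR and limma-trend called 0 of the 9 and DESeq2 called 1, Cd14. In edgeR, Adgre1, Fcgr1 and Cd14 passed the adjusted limit with no filter on low counts, and Fcgr1 and Cd14 passed it without BLM+HBO 2.

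**Figure D1:**
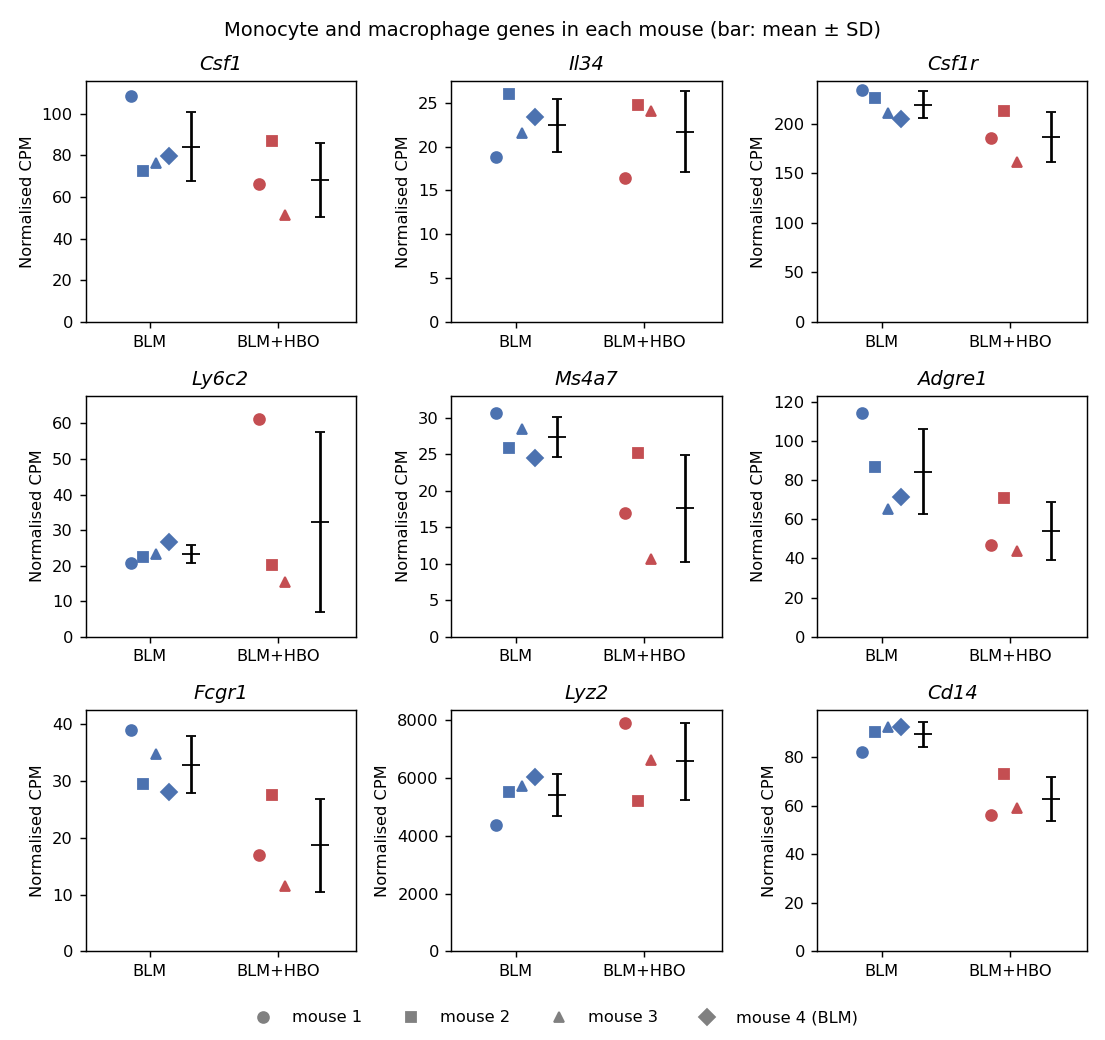
Normalised CPM of each gene (vertical axis, linear, from 0) in the 4 BLM and 3 BLM+HBO mice; marker shapes give the mouse number within its group and black bars the mean ± SD. For Fcgr1 and Cd14 every BLM+HBO mouse lay below every BLM mouse, and for Ly6c2 BLM+HBO 1 stood alone at 61.3 CPM.

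**Figure D2:**
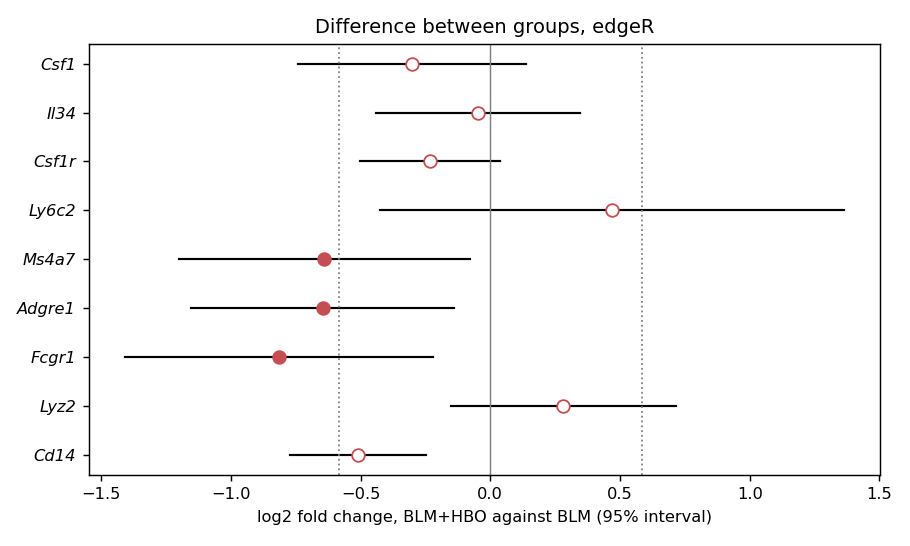
Log2 fold change of BLM+HBO against BLM for each gene (horizontal axis) with its 95% interval from edgeR; dotted lines mark a fold change of 1.5 in either direction and filled points the called genes. Ms4a7, Adgre1 and Fcgr1 are filled, at -0.64, -0.65 and -0.82.

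Levels between genes were compared per kilobase of the gene length in the count table, which joins all annotated exons. Lyz2 was far above the rest, at 4489 CPM per kilobase over the 7 mice, and its range met that of no other gene of the 9. Cd14 came next with 45.05 CPM per kilobase, followed by Csf1r with 35.5, Adgre1 with 22.04, Csf1 with 14.7, Il34 with 11.3, Fcgr1 with 10.3, Ly6c2 with 9.91 and Ms4a7 with 5.20. Below Lyz2, the ranges over the mice of each pair of neighbours in this order overlapped. Without the length, the order changed at 7 of the 9 places, and Csf1r rose above Cd14.

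Csf1 encodes the main growth factor of monocytes and macrophages. It stood at 109, 72.4, 76.3 and 79.5 CPM in BLM 1 to BLM 4 and at 66.4, 86.9 and 51.6 CPM in BLM+HBO 1 to BLM+HBO 3. The groups overlapped, with the highest level in BLM 1 and the lowest in BLM+HBO 3. The log2 fold change of -0.30 ± 0.20 (SE) was within the spread between mice (adjusted P = 0.61 by edgeR), and its 95% interval ran from -0.74 to 0.14.

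Il34 encodes the other CSF1R ligand, which in other organs supports resident macrophages such as Langerhans cells and microglia. Its levels were 18.8, 25.98, 21.6 and 23.4 CPM in the BLM mice and 16.4, 24.7 and 24.0 CPM in the BLM+HBO mice. Both groups covered nearly the same range. The log2 fold change was -0.05 ± 0.18 (SE, adjusted P = 0.94), with a 95% interval from -0.44 to 0.35, and its sign turned without BLM 2 (0.03) and without BLM+HBO 1 (0.12). Per kilobase, the level of Csf1 was between 1.03 and 2.14 times that of Il34 in the BLM mice and 1.497, 1.31 and 0.80 times in BLM+HBO 1 to 3, so that Il34 exceeded Csf1 in BLM+HBO 3.

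Csf1r encodes the receptor of both ligands. It was found at 234, 226, 211 and 204 CPM in the BLM mice and at 185, 212 and 162 CPM in the BLM+HBO mice. BLM+HBO 2 lay inside the BLM range and the other two lay below it. The log2 fold change of -0.23 ± 0.12 (SE) did not pass the test (adjusted P = 0.52, 95% interval -0.50 to 0.04).

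Around the receptor, 17 genes for its binding partners and its signalling were tested. Of these, 0 were called by edgeR, DESeq2 or limma-trend, and their median log2 fold change was -0.09. At an unadjusted P below 0.05, 1 was lower. This was Dok1, an adaptor that dampens kinase signalling, with a log2 fold change of -0.39, named after its value was seen. Tyrobp, which encodes the DAP12 adaptor that works with CSF1R and many myeloid receptors, differed by -0.32 on the log2 scale (adjusted P = 0.51). Without BLM+HBO 2 a single gene of the list, Dok2, passed both limits.

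Of the other growth factors and receptors of blood cell formation, 11 of 12 were tested, Il3 being without a read in any mouse. Csf3, which encodes the neutrophil growth factor G-CSF, fell and Flt3l, the ligand that drives dendritic cell formation, rose. Csf3 was low throughout, at 1.1, 0.338, 0.878 and 1.68 CPM in the BLM mice and 0.0532, 0.239 and 0.225 CPM in the BLM+HBO mice, which did not overlap (log2 fold change -2.46 ± 0.66 SE, adjusted P = 0.42 by edgeR). Without BLM 1, BLM 3 or BLM 4 it had too few reads to pass the count filter and was not tested, and in the 4 remaining fits with a mouse left out it was called, with values between -2.74 and -2.09. Flt3l stood at 8.31, 13.02, 20.4 and 18.01 CPM in the BLM mice and at 28.6, 24.4 and 29.2 CPM in the BLM+HBO mice. The groups did not overlap, the log2 fold change was 0.88 ± 0.26 (SE), and Flt3l was called whichever mouse was left out. Of 8 dendritic cell markers 4 were called higher, with sums of 193 to 232 CPM in BLM and of 231, 251 and 193 CPM in BLM+HBO, and leaving out BLM 1 gave 2 calls while leaving out BLM 2, BLM 3 or BLM+HBO 1 gave 1.

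Ly6c2 encodes one of the LY6C surface proteins by which classical monocytes are recognised. It was measured at 20.6, 22.5, 23.2 and 26.7 CPM in the BLM mice and at 61.3, 20.2 and 15.4 CPM in the BLM+HBO mice. BLM+HBO 1 had the highest level of all mice, while BLM+HBO 2 and BLM+HBO 3 lay below every BLM mouse. Its log2 fold change of 0.47 ± 0.40 (SE) did not pass the test (adjusted P = 0.70, 95% interval -0.42 to 1.36). Without BLM+HBO 1 it turned to -0.39, and without BLM+HBO 3 it was 0.80 and was called, so its direction depended on which BLM+HBO mouse was kept.

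The same mouse stood out in genes of other leukocytes. The 11 neutrophil markers summed to 632 CPM in BLM+HBO 1, to 207 and 210 CPM in BLM+HBO 2 and 3, and to between 316 and 384 CPM in the BLM mice. Of these 11 markers, 1 was lower and 1 higher by the call rule, and once BLM+HBO 1 was taken out 7 were lower and 0 higher. The 6 NK cell markers, of which 5 were called higher, summed to 81.8 CPM in BLM+HBO 1 and to between 5.45 and 22.3 CPM in the other mice. Without BLM+HBO 1, 1 of the 6 was called. Ptprc, which encodes the pan-leukocyte protein CD45, was at 260 CPM in BLM+HBO 1 against 111 to 155 CPM elsewhere. The part of these cells in the Ly6c2 level was not tested.

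Ly6c1, the close relative that endothelial cells also express, was measured at 591, 616, 618 and 513 CPM in the BLM mice and at 320, 549 and 340 CPM in the BLM+HBO mice. It differed by -0.54 ± 0.19 (SE) on the log2 scale, below the fold limit. Ly6c1 gave between 19.2 and 28.6 times as many CPM as Ly6c2 in the BLM mice, 27.2 and 22.1 times in BLM+HBO 2 and 3, and 5.22 times in BLM+HBO 1. The genes are nearly alike, as the first 150 bases of their coding sequences show, taken from the GENCODE vM21 transcripts, 5′ to 3′, with the bases that differ in capitals. Ly6c2 lies on chromosome 15 at 75108158 to 75111970 of GRCm38, on the minus strand.
Ly6c2: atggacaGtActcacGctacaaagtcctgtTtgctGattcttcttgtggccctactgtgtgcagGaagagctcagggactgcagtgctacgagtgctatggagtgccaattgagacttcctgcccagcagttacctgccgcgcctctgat
Ly6c1: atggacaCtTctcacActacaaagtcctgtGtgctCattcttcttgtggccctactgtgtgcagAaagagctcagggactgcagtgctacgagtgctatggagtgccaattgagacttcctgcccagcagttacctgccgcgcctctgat
Of these 150 bases 6 differed, and over the whole coding length of 393 bases 9 did, an identity of 97.7%. The longest run without a difference was 188 bases, so 39 of the 244 stretches of 150 coding bases in Ly6c2 occur without change in Ly6c1. At a shorter length, 252 of the 773 stretches of 50 transcript bases in Ly6c2 do. The counting dropped reads with more than 1 place in the genome. How many reads were placed on the wrong gene was not tested. Of the 9 LY6 relatives, 5 were tested and 1 was called, Ly6i, which was higher (log2 fold change 1.51) between 1.87 and 6.65 CPM in BLM+HBO, and lost its call once BLM 1, BLM 2 or BLM+HBO 1 was removed.

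Classical monocyte genes did not move one way. Of 9 tested, 2 were called, both lower, 5 had a negative and 4 a positive fold change, and the list's median log2 fold change was -0.56. Of the 4 positive genes, Ccr2, Plac8 and Ifitm6 were highest in BLM+HBO 1. With a mouse left out, their log2 fold changes reached as low as -0.38, -0.19 and -0.75, while Hp stayed positive. The 5 negative genes kept their sign whichever mouse was left out. F13a1, the coagulation factor XIII subunit of monocytes and macrophages, fell by 1.38 on the log2 scale (SE 0.45). Its BLM levels were 210, 128, 83.5 and 51.8 CPM and its BLM+HBO levels 61.4, 49.3 and 25.8 CPM, with an overlap. Vcan, the proteoglycan versican, which fibroblasts also make, fell by 1.07 (SE 0.32), from 29.5 to 79.7 CPM in BLM to 17.4 to 27.6 CPM in BLM+HBO. The chemokine receptor gene Ccr2, by which monocytes leave the marrow, was at 113, 103, 71.7 and 108 CPM in BLM and at 156, 85.3 and 66.5 CPM in BLM+HBO, where BLM+HBO 1 again was the highest mouse (log2 fold change 0.05, adjusted P = 0.96). Both calls were made whichever mouse was left out, and without BLM+HBO 2 the count was 5, all lower. limma-trend called 4, all lower.

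Nonclassical monocyte genes leaned the other way. Of 11 tested, 5 were called, all higher in BLM+HBO, beside 3.4% of all tested genes, and the median log2 fold change was 0.54. Fold changes were positive for 8 and negative for 3, namely Cx3cr1, Ace (-0.35) and Pglyrp1 (-0.20). The list's summed CPM, mostly from Ace, was 1164 to 1687 in BLM and 1228, 1534 and 1384 in BLM+HBO. Adgre4, an adhesion receptor of the same family as Adgre1, rose by 1.57 (SE 0.44), from 2.15, 2.71, 1.59 and 3.11 CPM in BLM to 12.9, 4.88 and 3.56 CPM in BLM+HBO. Its groups did not overlap, and BLM+HBO 1 was far above the other mice. Treml4, a receptor of the TREM family, rose by 1.17. It was low, at 0.933 to 2.16 CPM in BLM and 5.70, 2.35 and 2.85 CPM in BLM+HBO, and lost its call without BLM 2 or BLM+HBO 1. Cd300e rose by 1.77 but was near the floor, at 0.220 to 0.948 CPM in BLM and 3.73, 0.670 and 1.27 CPM in BLM+HBO, with an overlap. The nuclear receptor gene Nr4a1, which nonclassical monocytes need, rose by 1.04. Its groups overlapped, with BLM 4 at 134 CPM and BLM+HBO 2 at 73.2 CPM. DESeq2 called 4 genes of the list, all higher, without Nr4a1. The call of Nr4a1 was also lost with robust empirical Bayes and without BLM 1, BLM 2, BLM 3, BLM+HBO 1 or BLM+HBO 3. Eno3 rose by 1.12. It encodes the muscle enolase, and 9 of 10 heart muscle markers were also called higher, with sums of 730, 575 and 171 CPM in the BLM+HBO mice against 71.8 to 194 CPM in the BLM mice. Without BLM+HBO 1, 6 of them were called. The part of heart muscle in the Eno3 level was not tested. The fractalkine receptor gene Cx3cr1, the most used marker of these cells, was at 49.8, 46.3, 27.6 and 48.5 CPM in BLM and at 41.4, 45.9 and 32.3 CPM in BLM+HBO, with no call (log2 fold change -0.11, adjusted P = 0.88). Without BLM+HBO 1 the called genes numbered 2, Eno3 and Adgre4, without BLM 1, BLM 2 or BLM 3 they numbered 3, and the other settings that left a mouse out gave 7.

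Ms4a7 encodes a four-span membrane protein that marks monocyte-derived and interstitial macrophages. It fell in BLM+HBO, from 30.6, 25.9, 28.4 and 24.5 CPM in the BLM mice to 17.0, 25.2 and 10.6 CPM in the BLM+HBO mice. BLM+HBO 2 lay within the BLM range, and the other two were below it. On the log2 scale the difference was -0.64 ± 0.25 (SE, adjusted P = 0.44 by edgeR), which is a fold of 1.56 lower. With BLM 1 (-0.58), BLM 3 (-0.62), BLM+HBO 1 (-0.62) or BLM+HBO 3 (-0.38) left out the call was lost.

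Of 15 MS4A relatives, 10 were tested, and 1 was called lower and 2 higher. Ms4a6d, another macrophage member, fell by 0.996 on the log2 scale (SE 0.29), from 88.9, 58.3, 55.6 and 50.2 CPM to 25.2, 48.0 and 21.97 CPM, with no overlap. Ms4a1, the CD20 gene of B cells, rose by 1.05 and Ms4a4b, a gene of T and NK cells, by 1.08. Of 6 B cell markers 5 were called higher, with sums of 67.6 to 121 CPM in BLM and of 233, 117 and 140 CPM in BLM+HBO, and 2 were called without BLM+HBO 1. The part of B cells in the Ms4a1 level was not tested. Without BLM+HBO 1 the higher calls among the MS4A relatives were gone and Ms4a4a was lower beside Ms4a6d. DESeq2 called 2 lower and 4 higher.

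Adgre1 encodes F4/80, the classic surface marker of mouse macrophages. It fell from 114, 86.9, 65.4 and 71.2 CPM in the BLM mice to 46.8, 71.1 and 43.9 CPM in the BLM+HBO mice. The ranges met through BLM+HBO 2, which lay above BLM 3, and BLM 1 was the highest. It differed by -0.65 ± 0.23 (SE, adjusted P = 0.42 by edgeR), a fold of 1.57 lower. Taking out BLM 1 gave -0.47, taking out BLM+HBO 1 gave -0.55 and taking out BLM+HBO 3 gave -0.52, and each of these ended the call.

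Of 14 other genes listed for interstitial macrophages, 7 were called, all lower, beside 2.89% of all tested genes, and the median log2 fold change was -0.59. Since the list was chosen with earlier results known, this count is not independent of the data. The C1q genes C1qa, C1qb and C1qc, which encode the first complement component, fell by 1.01, 0.96 and 1.11 on the log2 scale. C1qa was at 502, 388, 432 and 306 CPM in the BLM mice and at 127, 315 and 165 CPM in the BLM+HBO mice. Again BLM+HBO 2 alone reached the BLM range. The lipid carrier gene Apoe fell by 0.91, the folate receptor gene Folr2 by 1.03, the mannose receptor gene Mrc1 by 0.84 and the haemoglobin scavenger receptor gene Cd163 by 1.51. Folr2 was low, at 2.37 to 5.78 CPM in BLM and 1.38 to 2.63 CPM in BLM+HBO. Its call was lost without BLM 1, BLM+HBO 1 or BLM+HBO 3. Alveolar macrophages also express Mrc1, and Apoe is made by several cell types. Of the remaining 7 genes 4 had negative and 3 positive fold changes, among them the vessel-associated macrophage gene Lyve1, which lymphatic endothelium shares, at 0.14 (adjusted P = 0.88). Between 5 and 7 genes of the list were called with each mouse left out, with 5 without BLM+HBO 1. DESeq2 and limma-trend each called 7.

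Myeloid transcription factors gave 2 calls of 9 tested, both lower, with a median log2 fold change of -0.30. Maf, a transcription factor of macrophages and of some T cells, fell by 0.66 on the log2 scale and Runx1, a factor of blood cell formation, by 0.61. Both calls were lost without BLM 1, BLM+HBO 1 or BLM+HBO 3, that of Maf also without BLM 2 and that of Runx1 with upper-quartile factors. Spi1, which encodes PU.1, the factor that starts the macrophage programme and acts on Csf1r, was at 77.9, 88.7, 88.1 and 77.6 CPM in BLM and at 71.7, 78.0 and 53.1 CPM in BLM+HBO (log2 fold change -0.30, adjusted P = 0.49).

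Of 11 pan-macrophage genes 1 was called, Lgmn, the lysosomal protease legumain. It fell by 0.82 on the log2 scale (SE 0.18, adjusted P = 0.42 by edgeR), from 619, 564, 607 and 489 CPM to 265, 425 and 281 CPM, with no overlap, and was called whichever mouse was left out. Cd68, the lysosomal marker of macrophages, was at 116 to 137 CPM in BLM and at 70.3, 110 and 75.7 CPM in BLM+HBO, and its log2 fold change of -0.54 was under the fold limit. The list's median was -0.27, and without BLM+HBO 2 the list had 4 calls. Of 12 alveolar macrophage markers, 11 were tested, with 3 lower and 2 higher, and their sums were 772 to 2179 CPM in BLM and 703, 984 and 774 CPM in BLM+HBO. Without BLM+HBO 3, 1 was lower and 0 higher, and without BLM 1, BLM 2 or BLM 4, 2 were lower and 1 higher.

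**Figure D3:**
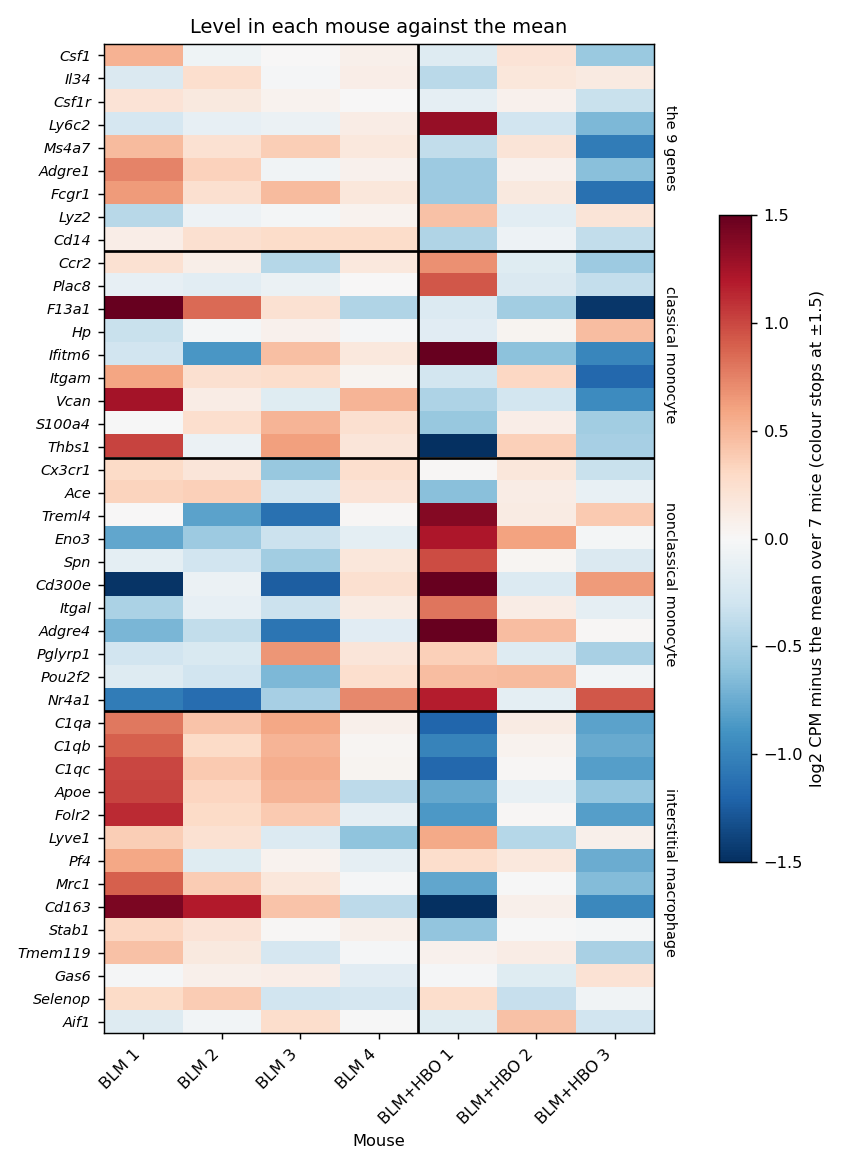
Level of each gene in each mouse as log2 CPM minus the gene's mean over the 7 mice (colour, red above and blue below the mean, stopping at ±1.5), with a vertical line between BLM and BLM+HBO and horizontal lines between the 9 genes and the classical monocyte, nonclassical monocyte and interstitial macrophage lists. C1qa, C1qb, C1qc, Mrc1 and Cd163 are blue in BLM+HBO 1 and 3, and BLM+HBO 1 is red for Ly6c2, Ifitm6 and Adgre4.

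Fcgr1 encodes CD64, the high-affinity receptor for IgG, which macrophages and monocyte-derived cells carry. It had the lowest fold change of the 9 genes. Its levels were 39.0, 29.4, 34.8 and 28.1 CPM in the BLM mice and 17.0, 27.6 and 11.5 CPM in the BLM+HBO mice. The groups did not overlap, although BLM+HBO 2 lay just under BLM 4. Fcgr1 had a log2 fold change of -0.82 ± 0.26 (SE, adjusted P = 0.42 by edgeR), a fold of 1.76 lower, with a 95% interval from -1.41 to -0.22. Among the 7 mice left out in turn, only the removal of BLM+HBO 3 ended the call (-0.56).

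Of the other Fc receptor genes 5 of 6 were tested, 2 were called lower and 0 higher, and all 5 had negative fold changes with a median of -0.57. Fcgr2b, the inhibitory receptor, was at 171, 145, 134 and 119 CPM in BLM and at 74.0, 120 and 56.9 CPM in BLM+HBO, and fell by 0.77 (SE 0.23). Fcgr3, an activating receptor, fell by 0.77 (SE 0.20), from 172, 138, 120 and 106 CPM to 71.2, 102 and 62.6 CPM with no overlap. Fcgr4, the activating receptor found on nonclassical monocytes and neutrophils, had a log2 fold change of -0.57, and Fcer1g, the signalling chain shared by the activating receptors, had -0.36, both under the fold limit. Fcgr4 passed the limit when BLM 3, BLM 4, BLM+HBO 1 or else BLM+HBO 2 was taken out, and Fcgr2b lost its call without BLM+HBO 3.

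Fcgr1 and Ms4a7 moved together over the 7 mice, with a Pearson correlation of log2 CPM of 0.99, as a description of mice that share their groups. Their promoters are shown, both genes being called, while that of Adgre1, which was also called, is not shown. The windows run from 250 bases before to 50 bases after the start in the RefSeq table of GRCm38.p6, 5′ to 3′ along the gene. Among the promoter windows searched here, 5 of the 9 genes had at least 1, which is not a count of the genes in the whole table. Capitals mark GAGGAA or its reverse complement TTCCTC, the core of the PU box that PU.1 binds, searched on both strands. The Fcgr1 window is chr3:96293920-96294219 and the Ms4a7 window chr19:11336097-11336396, both on the minus strand.
Fcgr1: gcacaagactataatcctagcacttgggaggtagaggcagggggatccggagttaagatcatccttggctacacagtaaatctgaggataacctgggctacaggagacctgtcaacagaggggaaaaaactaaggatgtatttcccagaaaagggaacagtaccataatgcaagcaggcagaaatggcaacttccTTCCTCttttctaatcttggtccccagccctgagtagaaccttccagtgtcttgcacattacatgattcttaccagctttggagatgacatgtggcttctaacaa
Ms4a7: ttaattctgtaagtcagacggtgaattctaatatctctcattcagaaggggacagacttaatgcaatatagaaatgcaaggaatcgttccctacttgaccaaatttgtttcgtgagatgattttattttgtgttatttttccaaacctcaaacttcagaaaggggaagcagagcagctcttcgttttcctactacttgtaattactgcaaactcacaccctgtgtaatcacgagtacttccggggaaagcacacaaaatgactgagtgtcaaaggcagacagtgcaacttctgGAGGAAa
The motif began 55 bases before the start in Fcgr1 and 43 bases after it in Ms4a7. The Ms4a7 window shown starts from the outermost end of the gene in the count table, and a second window, from another start, held 0 matches. Of the 32851 promoter windows of this length that were searched, 28.3% held the motif, so a match describes the letters only.

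Csf1r as a yardstick gave another view of the same mice. In CPM, Fcgr1 was 16.7%, 13.03%, 16.5% and 13.8% of Csf1r in the BLM mice and 9.21%, 12.98% and 7.10% in the BLM+HBO mice. Ms4a7 was 11.5% to 13.5% of Csf1r in BLM and 9.18%, 11.8% and 6.55% in BLM+HBO. For both genes BLM+HBO 1 and BLM+HBO 3 lay below the BLM range, while BLM+HBO 2 lay just below it for Fcgr1 and within it for Ms4a7. C1qa was 150% to 215% of Csf1r in BLM and 68.7%, 148% and 102% in BLM+HBO. Cd14 was 35.04% to 45.4% in BLM and 30.4%, 34.3% and 36.6% in BLM+HBO. These ratios were chosen after the values were seen and were not tested.

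Cd14 encodes the co-receptor that passes lipopolysaccharide to TLR4 and is made by monocytes, macrophages and neutrophils. It had the smallest P of the 9 genes. Its levels were 82.0, 90.6, 92.6 and 92.7 CPM in the BLM mice and 56.2, 72.9 and 59.2 CPM in the BLM+HBO mice. Every BLM+HBO mouse was below every BLM mouse. Its log2 fold change was -0.51 ± 0.12 (SE, adjusted P = 0.42 by edgeR), a fold of 1.42 lower and under the fold limit. DESeq2 gave an adjusted P of 0.042, and over all settings the adjusted P of Cd14 ran from 0.042 to 0.80. Without BLM+HBO 2 the log2 fold change was -0.63 and Cd14 was called.

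Of 13 further genes of lipopolysaccharide sensing, 0 were called by edgeR, DESeq2 or limma-trend, and 3 were lower at an unadjusted P below 0.05. These were Tlr2 (-0.53), Lbp (-0.33) and Myd88 (-0.25), a receptor for bacterial lipoproteins, the serum carrier of lipopolysaccharide and the adaptor of most Toll-like receptors, named after their values were seen. All 13 fold changes were negative, with a median of -0.25. Tlr4 itself was at 44.5, 32.1, 17.7 and 19.3 CPM in BLM and at 16.6, 26.3 and 14.5 CPM in BLM+HBO (log2 fold change -0.57, adjusted P = 0.57), and its partner Ly96 differed by -0.36 (adjusted P = 0.60). Tlr2 was called without BLM 2, and Tlr2 and Tlr4 were called without BLM+HBO 2.

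Lyz2 encodes lysozyme M, which monocytes, macrophages, neutrophils and alveolar type 2 (AT2) cells all make. Its levels were 4365, 5526, 5710 and 6033 CPM in the BLM mice and 7894, 5199 and 6631 CPM in the BLM+HBO mice. BLM+HBO 1 and BLM+HBO 3 lay above every BLM mouse, and BLM+HBO 2 lay between BLM 1 and BLM 2. For Lyz2 the log2 fold change of 0.28 ± 0.19 (SE) did not pass the test (adjusted P = 0.62, 95% interval -0.15 to 0.71). Lyz2 and Ly6c2 were the 2 genes of the 9 with positive fold changes.

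The 8 AT2 cell markers were highest in the same mice as Lyz2. They summed to 9019, 16476, 15823 and 15128 CPM in the BLM mice and to 24280, 11443 and 28037 CPM in the BLM+HBO mice. All 8 had positive fold changes with a median of 0.36, and 1 was called higher. With BLM 1, BLM 3, BLM+HBO 1 or else BLM+HBO 3 left out the count was 0, with BLM+HBO 2 left out it was 4, and the median ran from 0.16 to 0.62 over the mice left out. The part of AT2 cells in the Lyz2 level was not tested.

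**Figure D4:**
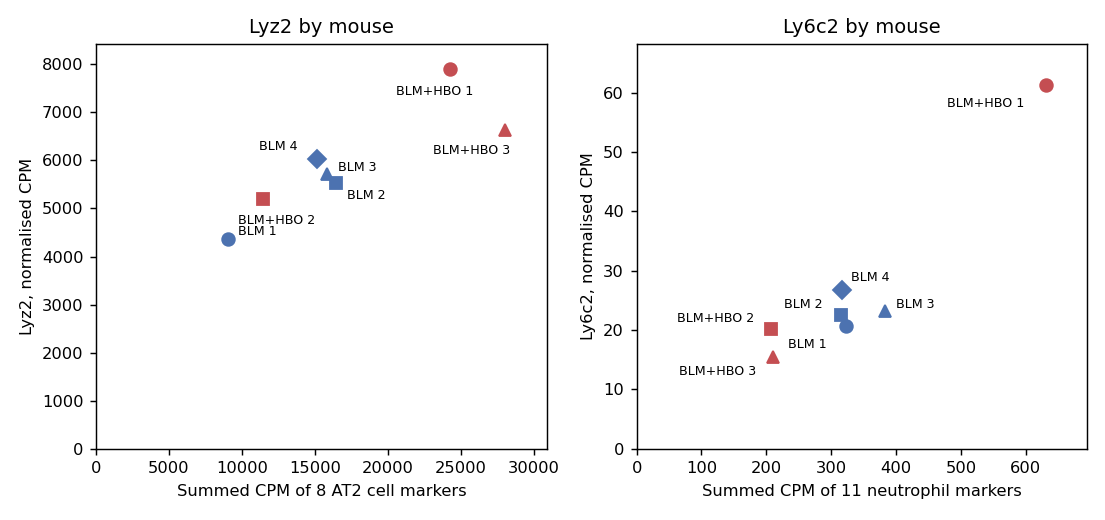
Normalised CPM of Lyz2 against the summed CPM of 8 AT2 cell markers (left) and of Ly6c2 against the summed CPM of 11 neutrophil markers (right), 1 point per mouse, blue for BLM and red for BLM+HBO, all axes linear from 0. BLM+HBO 1 and BLM+HBO 3 had the highest AT2 sums and the highest Lyz2, and BLM+HBO 1 was the highest for Ly6c2 and for neutrophil markers.

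Lyz1, the neighbouring lysozyme gene of the gut that is also read in lung, was at 32.4, 74.4, 71.4 and 110 CPM in the BLM mice and at 395, 63.3 and 179 CPM in the BLM+HBO mice. It was called higher, with a log2 fold change of 1.56 ± 0.54 (SE, adjusted P = 0.42 by edgeR), although BLM+HBO 2 lay among the BLM mice. Without BLM+HBO 1 it was 0.75 and not called. Its CPM were between 0.743% and 5.01% of those of Lyz2. The first 150 coding bases of both genes, which lie side by side on the minus strand of chromosome 10 (Lyz2 at 117277331 to 117282321 of GRCm38), show how close they are, with the bases that differ in capitals.
Lyz2: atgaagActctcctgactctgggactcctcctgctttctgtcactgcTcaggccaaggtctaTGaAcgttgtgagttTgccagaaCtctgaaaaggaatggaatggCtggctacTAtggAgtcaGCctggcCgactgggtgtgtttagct
Lyz1: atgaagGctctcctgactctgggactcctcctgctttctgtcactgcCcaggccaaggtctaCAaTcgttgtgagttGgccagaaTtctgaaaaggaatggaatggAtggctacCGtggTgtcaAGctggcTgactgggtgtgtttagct
Of these 150 bases 14 differed, and of the 444 coding bases 22 did, an identity of 95.05%. The longest run without a difference was 118 bases, and 0 of 295 stretches of 150 coding bases were shared. At a shorter length, 195 of the 1267 stretches of 50 transcript bases in Lyz2 occur without change in Lyz1. How many Lyz2 reads were placed on Lyz1 was not tested.

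For each of the 9 genes, the 3 tested protein-coding genes with at least 5 CPM on average and the highest Pearson correlation of log2 CPM over the 7 mice were listed among 12094 candidates. With so many candidates and few mice, high values describe the mice and nothing more. Fcgr1 was most like Ccr1 (0.99), a chemokine receptor gene of monocytes and neutrophils, followed by Pgk1 and Msln. Ms4a7 was most like Fxyd5, Rnf2 and Itgam (0.99, 0.98 and 0.98), the last being the integrin gene of CD11b. Adgre1 was most like C1qtnf1, AI413582 and Calu, and Csf1r was most like Cmpk1, Zbtb7c and Zfp521. Csf1 was most like Ftsj3, Muc16 and Sulf1, and Il34 like Trappc9, P4ha2 and Slc46a1.

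Ly6c2 was most like I830077J02Rik, Coro1a and Plac8 (0.99 each), of which Coro1a is a pan-leukocyte actin regulator and Plac8 a gene of classical monocytes and lymphocytes. Lyz2 was most like its paralog Lyz1 (0.99), then Ppp2r5a and Ramp2. Cd14 was most like Ciao2a, Atp6v0a4 and Ltf (0.98 each), the last encoding lactoferrin. Among the 9 genes themselves, Csf1r had correlations of 0.96 with Ms4a7, 0.96 with Fcgr1, 0.93 with Adgre1, 0.88 with Csf1 and 0.76 with Cd14, and of -0.78 with Lyz2, -0.07 with Ly6c2 and 0.06 with Il34.

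Over the 11 lists around the 9 genes, 25 of 115 tested genes were called, 16 lower and 9 higher. Over all tested genes the shares were 2.89% and 3.4%. The lower calls were spread over macrophage, Fc receptor, transcription factor, classical monocyte, MS4A and growth factor genes, and 5 of the 9 higher calls were nonclassical monocyte genes. At an adjusted P below 0.05 edgeR called 0, and the adjusted P of the 25 ran from 0.42 to 0.47. At that limit DESeq2 called 3 interstitial macrophage and 2 nonclassical monocyte genes. It also called 1 gene each of the classical monocyte, pan-macrophage, Fc receptor and MS4A lists and 0 of the other lists, beside 0.892% of all genes it could adjust. Fibroblast markers also moved between the groups, with 5 of 9 called lower and 2 higher and sums of 6692 to 10646 CPM in BLM and 3342, 7132 and 4252 CPM in BLM+HBO. These counts rested on single mice, with 1 lower and 1 higher without BLM 1, 1 lower and 2 higher without BLM+HBO 3, 2 lower and 0 higher without BLM+HBO 1, 3 lower and 2 higher without BLM 2, and 4 lower and 0 higher without BLM 3. BLM+HBO 2 was within the BLM range there too. The part of these shifts in cell makeup in the macrophage genes was not tested.

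**Figure D5:**
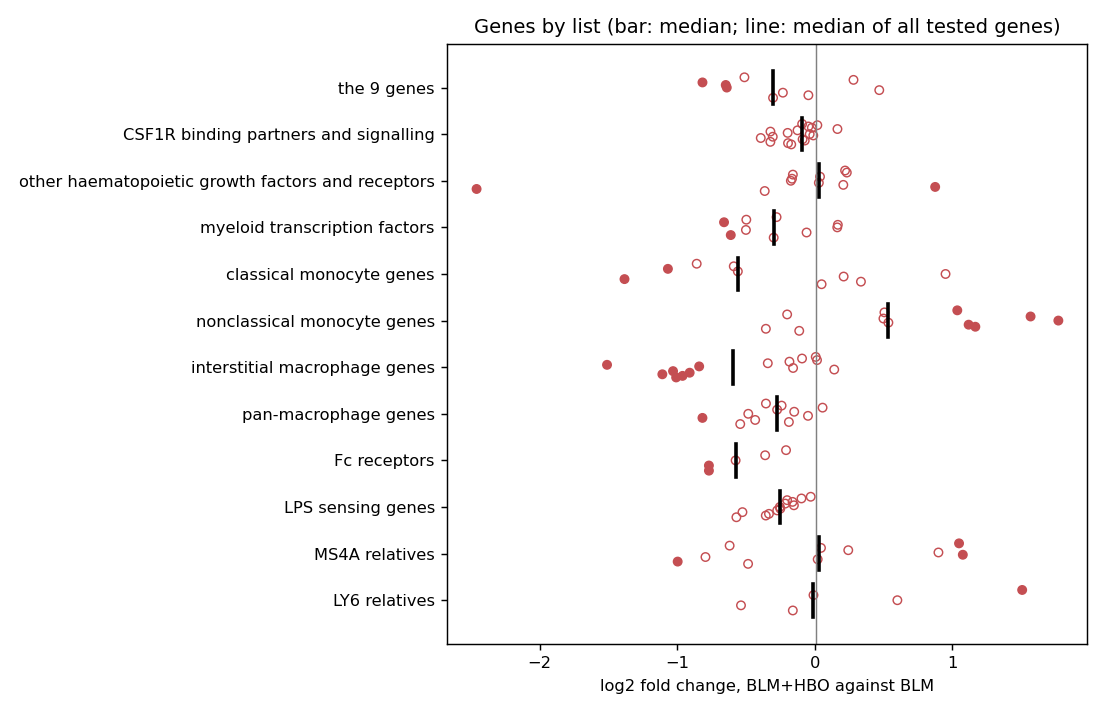
Log2 fold change of each tested gene (horizontal axis), BLM+HBO against BLM, by list; filled points are called, black bars are the list medians and the grey line is the median of all tested genes. The interstitial macrophage and Fc receptor medians lie at -0.59 and -0.57 and the nonclassical monocyte median at 0.54.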

How the data were processed

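RNA of right lung lobes from 7 mice was sequenced as paired ends after NEBNext Ultra library preparation. After trimming (Trim Galore) and alignment to GRCm38 (Hisat2), the authors counted reads per gene with featureCounts, and the deposited values are these raw counts. Its default settings ignore strand and drop multi-mapping reads as well as those shared by overlapping genes. The release of their annotation is not given in the sources used here. Symbols were taken from GENCODE vM21, in which 54349 of 55401 identifiers had the same version and 260 had no symbol. The 9 genes and all lists were chosen with earlier results of these data known. Some genes of the transcription factor and classical monocyte lists are not reported here and are in none of the list counts.

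Low genes were removed by filterByExpr (at least 10 counts, total of 15) and the rest were tested with the quasi-likelihood test of edgeR 4.0.16 under R 4.3.3 with TMM factors, two-sided, BLM as reference, and Benjamini-Hochberg adjustment over all 17465 genes. Log2 CPM used a prior count of 2. Alternatives were DESeq2 1.42.0, limma-trend (limma 3.58.1), RLE and upper-quartile factors, other filters, robust empirical Bayes, a replicate block, other limits and each mouse left out. The fits were also run on simulated counts with known changes and independent mice. That run cannot show how calls fare with a mouse unlike its group, such as BLM+HBO 2. No set test was run. The named genes were mainly the 9, the called genes of the lists, 17 context genes listed by name, and the 3 most alike genes of each. Some other list genes were named after their values were seen, among them Dok1, Dok2, Tlr2, Lbp, Myd88, Lyve1, Ms4a4a, Ifitm6, Hp, Ace and Pglyrp1. Each library was 1 mouse, so P-values measure the spread between mice; libraries of 1 group differed by more than sampling noise. The depth of 18157161 to 26365969 counts per mouse gave each of the 9 genes at least 282 counts.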

Additional observations from a re-analysis of the deposited data

Results flagged for a closer look

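Among 58 sets of 4 BLM mice examined, 4 had a mouse far from the other 3 by Dixon's ratio of gap to range (above its 95% critical value), where chance gives about 1 in 20. The sets covered the 9 genes, the called genes of the lists, the context genes, the marker sums and the library totals. Log2 CPM of Cx3cr1 gave 0.878, with BLM 3 low at 27.6 CPM. The summed CPM of neutrophil markers gave 0.891, with BLM 3 high at 384 CPM, and that of dendritic cell markers gave 0.967, with BLM 4 high at 232 CPM. The total count gave 0.971, with BLM 4 at 19002242. None of the 9 genes was among them. The BLM+HBO group of 3 mice was not examined in this way, so the Ly6c2 value of BLM+HBO 1 was not judged by this ratio.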

How the results depend on the processing

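The 9 genes were refitted under 15 alternatives each. Of 135 values, 122 kept their direction and side of the limits, 8 lost a call, 2 gained one and 3 turned sign. All of these changes came from leaving out a mouse. Reversed values were 0.03 and 0.12 for Il34, without BLM 2 and BLM+HBO 1, and -0.39 for Ly6c2 without BLM+HBO 1; the cause was not tested. Over the mice left out, Il34 ran from -0.15 to 0.12 and Ly6c2 from -0.39 to 0.80. With each mouse left out, the called members numbered 1 to 4, the called genes of the lists 18 to 41, all called genes 659 to 1914 and genes at an adjusted P below 0.05 from 0 to 267. With no filter on low counts, 1940 genes were called and 387 passed the adjusted limit, against 1098 and 0. DESeq2 gave 151 at the adjusted limit. A fold change above 2 left 509 genes, 15 listed genes and 0 members, and a P limit of 0.01 left 319, 13 and 0. Same-numbered mice did not deviate together (correlations -0.01, -0.07 and 0.16), so the numbers were not taken to pair the mice; the replicate block called 1258 genes and the same 3 members. A sample of 4 and 3 mice without an uninjured group limits these comparisons.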
